A study of Mus musculus with 6 samples.

Results

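The insulin-like growth factor (IGF) system was read in primary vascular smooth muscle cells (VSMCs) through 9 genes, the ligand gene *Igf1*, the receptor genes *Igf1r* and *Igf2r*, and the binding protein genes *Igfbp2* to *Igfbp7*. They were taken by gene symbol, with no filter on their values, from the 18112 genes of the expression table. The list was chosen with earlier results of these data known. All 9 were among the 12565 genes that were tested, those whose mean was 0.5 FPKM or more. FPKM scales the sequenced fragments of a gene by transcript length and by how many fragments of the library were mapped. The study asked what the loss of SMYD2, a lysine methyltransferase, does to VSMCs, and sequenced RNA from 3 *Smyd2* fl/fl and 3 *Smyd2* SMC-/- libraries of the C57BL/6 strain. Both groups carry *Smyd2* alleles with loxP sites around exon 2, and in *Smyd2* SMC-/- mice a *Tagln-Cre* transgene removes that exon, while *Smyd2* fl/fl littermates served as controls. Cells came from the medial layer of thoracic aortas of mice aged 8 to 10 weeks, after the endothelium and the adventitia had been taken off. The *Tagln* promoter is used as a smooth muscle driver and is known to be active in embryonic heart muscle as well. The sources differ on the culture itself: the labels give passage 6 in medium with 10% serum, the methods passage 4 after a night of starvation, and the kits named for RNA and libraries differ too. The methods state in general that experiments were repeated independently, but neither they nor the labels say whether the libraries of 1 group came from separate animals or cultures, so p-values measure only the spread between these libraries, which may be technical. By the steps between low FPKM values, the libraries held approximately 17450000, 18950000 and 18650000 fragments for *Smyd2* fl/fl and 16350000, 18550000 and 18200000 for *Smyd2* SMC-/-.

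*Smyd2* (NCBI Gene 226830), the deleted gene, had 7.87, 3.1 and 3.0 FPKM across *Smyd2* fl/fl replicates 1, 2 and 3, against 1.67, 0.40 and 0.80 FPKM across *Smyd2* SMC-/- replicates 1, 2 and 3. Each *Smyd2* SMC-/- library lay below each *Smyd2* fl/fl library, the same-numbered pairs differed by -1.73, -1.55 and -1.15 on the log2 scale, and FPKM also counts fragments outside the removed exon. The log2 fold change of FPKM plus 1 was -1.48 (SE 0.389, limma adjusted p = 0.105), while fitting the replicate number as a block gave 0.0189 for the limma adjusted p. The smooth muscle label was checked against 12 markers, of which 8 were tested. By the mean over the 6 libraries *Acta2* was the most abundant, while *Cald1* was above it in each *Smyd2* SMC-/- library. *Acta2* had 761, 682 and 683 FPKM across the *Smyd2* fl/fl libraries against 201, 268 and 262 FPKM across the *Smyd2* SMC-/- libraries. *Tagln* had 80.5, 79.1 and 70.3 FPKM across the *Smyd2* fl/fl libraries against 12.5, 87.3 and 57.1 FPKM across the *Smyd2* SMC-/- libraries. *Myh11*, *Myocd*, *Des* and *Synpo2*, which mark contractile smooth muscle, had means under 0.5 FPKM over the 6 libraries. Other contractile markers were present, as *Cald1* had 497, 404 and 428 FPKM across the *Smyd2* fl/fl libraries against 279, 290.5 and 315 FPKM across the *Smyd2* SMC-/- libraries and *Smtn* 55, 52 and 52.8 FPKM across the *Smyd2* fl/fl libraries against 45.9, 63.1 and 46.9 FPKM across the *Smyd2* SMC-/- libraries, and *Cnn1* (21, 4.86 and 5.11 FPKM across the *Smyd2* fl/fl libraries against 2.7, 5.07 and 4.32 FPKM across the *Smyd2* SMC-/- libraries) and *Lmod1* (3.28, 2.71 and 2.83 FPKM across the *Smyd2* fl/fl libraries against 1.22, 5.44 and 6.02 FPKM across the *Smyd2* SMC-/- libraries) were less abundant than these 2 genes in both groups. The other markers tested were *Mylk*, with 1.02, 3.62 and 3.75 FPKM across the *Smyd2* fl/fl libraries against 1.72, 7.14 and 9.68 FPKM across the *Smyd2* SMC-/- libraries, and *Actg2*, with 2.38, 1.74 and 1.77 FPKM across the *Smyd2* fl/fl libraries against 0.18, 0.73 and 0.66 FPKM across the *Smyd2* SMC-/- libraries. Their log2 fold changes were 0.81 (SE 0.581, limma adjusted p = 0.505), or 0.40 to 1.4 with 1 library left out, and -0.97 (SE 0.217, limma adjusted p = 0.0722).

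IGF1 and IGF2 are secreted peptides that activate the receptor tyrosine kinase IGF1R, which signals through insulin receptor substrates, PI3K and AKT to growth and survival, and IGF1 is known as a mitogen and survival factor of VSMCs. IGF2R has no kinase and takes IGF2 to the lysosome, and secreted IGF-binding proteins hold the ligands away from IGF1R or deliver them to the cell surface and matrix, until proteases such as PAPP-A or HTRA1 cut them. IGFBP7 is a relative with low affinity for IGFs.

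Of the 9 genes, 1 (*Igfbp5*) passed an adjusted p of 0.05 in limma over all tested genes, where 2.44% of genes passed in either direction. The replicate number was also fitted as a block, since same-numbered libraries deviated together in these same values, while the methods name no pairing. Replicates 2 and 3 of different groups deviated together as well (correlations of 0.46 and 0.44), so only replicate 1 stood apart. With the block 3 genes passed, *Igf1* and *Igfbp5* higher and *Igfbp4* lower in *Smyd2* SMC-/-, against 10.4% of all tested genes. The *Smyd2* fl/fl and *Smyd2* SMC-/- values did not overlap in 5 of the 9 genes, against 28.1% of tested genes, with *Igf1*, *Igfbp3* and *Igfbp5* higher and *Igf2r* and *Igfbp4* lower in *Smyd2* SMC-/-. An exact two-sided permutation test gave 0.1 for each of these 5, the smallest p that 3 against 3 libraries allow. In replicates 2 and 3 alone, 6 of the 9 passed in limma, 4 higher and 2 lower, against 29.0% of tested genes. The median log2 fold change was 1.36 over the 9 genes and -0.018 over all tested genes, and that of the 9 ranged from 0.73 (without *Smyd2* SMC-/- replicate 2) to 2.39 (without *Smyd2* SMC-/- replicate 1) when 1 library was left out. With 5 of the 9 positive and 4 negative, this median is the value of *Igfbp6*, whose groups overlapped, and describes no shared direction. Rescaling each library to TPM moved the median over all genes by 0.11, to 0.095, and turned the split of calls from 154 higher and 152 lower to 247 higher and 99 lower, while 1 of the 9 genes was called as before. With TPM and with quantile normalization the 9 genes kept their direction, except *Igfbp7* with the latter. In bulk RNA, fewer cells of a type and less RNA per cell cannot be told apart for any of these genes.

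**Figure D1:**
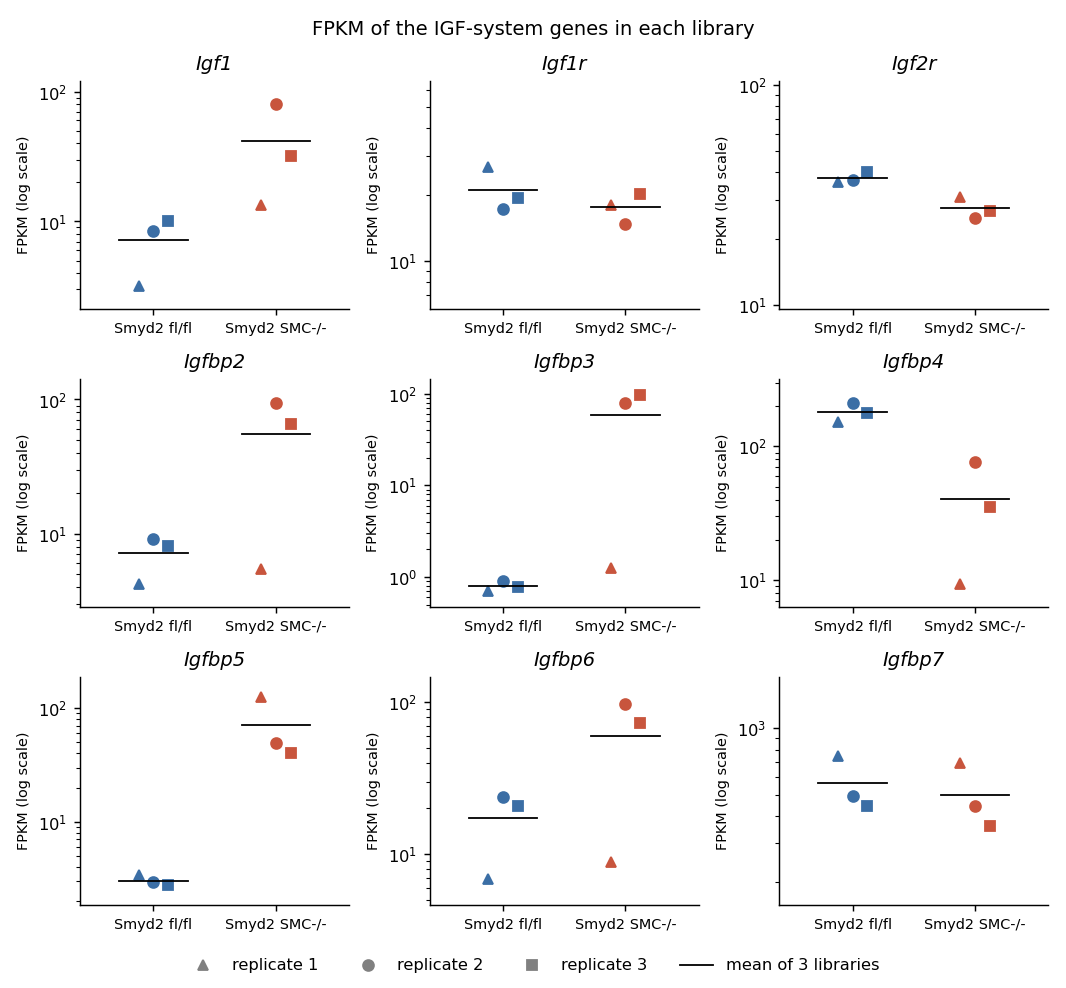
FPKM of the 9 genes (vertical axes, log scale) in the 3 *Smyd2* fl/fl libraries (blue) and the 3 *Smyd2* SMC-/- libraries (red). Triangles, circles and squares are replicates 1, 2 and 3, and the line is the group mean. *Igfbp5* lay near 3 FPKM in *Smyd2* fl/fl and at 40.1 to 126 FPKM in *Smyd2* SMC-/-, while *Igfbp2*, *Igfbp3* and *Igfbp6* were high in *Smyd2* SMC-/- replicates 2 and 3 and low in *Smyd2* SMC-/- replicate 1.

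Among the ligands, *Igf1* (NCBI Gene 16000) had 3.16, 8.38 and 10.1 FPKM across *Smyd2* fl/fl replicates 1, 2 and 3, against 13.5, 80.3 and 31.9 FPKM across *Smyd2* SMC-/- replicates 1, 2 and 3. Each *Smyd2* SMC-/- library lay above each *Smyd2* fl/fl library, with *Smyd2* SMC-/- replicate 2 highest and *Smyd2* SMC-/- replicate 1 closest to the controls. The log2 fold change was 2.16 (SE 0.665, limma adjusted p = 0.143), 0.0303 was the adjusted p under the replicate block, and the 3 same-numbered pairs differed by 1.8, 3.12 and 1.57 on the log2 scale. In replicates 2 and 3 alone limma's adjusted p of *Igf1* was 0.0638. *Igf2*, the other IGF ligand and not one of the 9 genes, had 165, 182 and 128 FPKM across the *Smyd2* fl/fl libraries against 7.64, 10.3 and 20.6 FPKM across the *Smyd2* SMC-/- libraries. It was lower in every *Smyd2* SMC-/- library, with a fold change on the log2 scale of -3.62 (SE 0.342, limma adjusted p = 0.00727), and without *Smyd2* fl/fl replicate 2 the adjusted p was 0.0541. *Igf1* made up 1.88, 4.4 and 7.28% of the summed FPKM of the 2 ligands for *Smyd2* fl/fl replicates 1, 2 and 3, against 63.8, 88.6 and 60.8% for *Smyd2* SMC-/- replicates 1, 2 and 3. The mean share was 4.52 ± 2.7% for *Smyd2* fl/fl against 71.1 ± 15.3% for *Smyd2* SMC-/-, as mean ± SD with n = 3 (exact two-sided permutation p = 0.1). *Igf2* was the more abundant ligand in 3 of 3 *Smyd2* fl/fl libraries and *Igf1* in 3 of 3 *Smyd2* SMC-/- libraries. The sum of both ligands was 166 ± 26 FPKM for *Smyd2* fl/fl against 54.8 ± 34.8 FPKM for *Smyd2* SMC-/-, as mean ± SD with n = 3 (exact two-sided permutation p = 0.1). The insulin genes *Ins1* and *Ins2* were not among the symbols of the table.

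*Igf1r* (NCBI Gene 16001), the signalling receptor, had 26.8, 17.3 and 19.2 FPKM across *Smyd2* fl/fl replicates 1, 2 and 3, against 17.9, 14.8 and 20.1 FPKM across *Smyd2* SMC-/- replicates 1, 2 and 3. The groups overlapped, and *Smyd2* fl/fl replicate 1 stood highest. Its log2 fold change was -0.23 (SE 0.201, limma adjusted p = 0.582), 0.325 was the adjusted p with the replicate block, and leaving out 1 library gave log2 fold changes of -0.36 to -0.057. *Igf2r* (NCBI Gene 16004), the receptor that clears IGF2, had 36.2, 36.9 and 40.1 FPKM across *Smyd2* fl/fl replicates 1, 2 and 3, against 31, 24.8 and 26.7 FPKM across *Smyd2* SMC-/- replicates 1, 2 and 3. All 3 *Smyd2* SMC-/- values were below all 3 *Smyd2* fl/fl values, and the spread within each group was small beside that of the ligands. *Igf2r* differed by a log2 fold change of -0.45 (SE 0.13, limma adjusted p = 0.127), with an adjusted p of 0.0695 with the replicate block and of 0.0064 in replicates 2 and 3 alone, where the log2 fold change was -0.56. The insulin receptor gene *Insr*, whose product can pair with IGF1R, had 6.58, 7.33 and 8.84 FPKM across the *Smyd2* fl/fl libraries against 7.87, 6.6 and 8.76 FPKM across the *Smyd2* SMC-/- libraries (log2 fold change 0.028, limma adjusted p = 0.952, and -0.058 to 0.13 with 1 library left out). *Igf1r* FPKM was 4.07, 2.36 and 2.18 times that of *Insr* for *Smyd2* fl/fl replicates 1, 2 and 3, against 2.28, 2.24 and 2.3 times for *Smyd2* SMC-/- replicates 1, 2 and 3. *Insrr*, the insulin receptor-related gene, stayed under 0.5 FPKM.

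*Igfbp5* (NCBI Gene 16011) encodes a binding protein that attaches to extracellular matrix, and its level was 3.36, 2.95 and 2.74 FPKM across *Smyd2* fl/fl replicates 1, 2 and 3, against 126, 49.7 and 40.1 FPKM across *Smyd2* SMC-/- replicates 1, 2 and 3. The *Smyd2* fl/fl libraries lay close together, every *Smyd2* SMC-/- library was far above them, and *Smyd2* SMC-/- replicate 1 was highest. The means were 3.02 ± 0.315 FPKM for *Smyd2* fl/fl against 71.9 ± 47.1 FPKM for *Smyd2* SMC-/- (SD, n = 3 each), a 23.8-fold difference that was 14.9-fold without *Smyd2* SMC-/- replicate 1. On the log2 scale *Igfbp5* differed by 4.0 (SE 0.407, limma adjusted p = 0.00906), or an adjusted p of 0.00932 with the block. Without *Smyd2* fl/fl replicate 2 or *Smyd2* fl/fl replicate 3 limma's adjusted p was 0.0611 and 0.0615, with log2 fold changes of 3.99 and 3.95. Over all alternatives the log2 fold change of *Igfbp5* ranged from 3.51 to 4.35 and the adjusted p from 6.69e-06 to 0.0615.

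*Igfbp4* (NCBI Gene 16010), whose product holds IGFs away from their receptor until PAPP-A cuts it, had 152, 213 and 179 FPKM across *Smyd2* fl/fl replicates 1, 2 and 3, against 9.35, 76.1 and 35.4 FPKM across *Smyd2* SMC-/- replicates 1, 2 and 3. Every *Smyd2* SMC-/- library was below every *Smyd2* fl/fl library, and *Smyd2* SMC-/- replicate 1 was lowest. *Igfbp4* differed by a log2 fold change of -2.56 (SE 0.676, limma adjusted p = 0.107), with an adjusted p of 0.0406 with the replicate block and of 0.037 in replicates 2 and 3 alone. *Igfbp3* (NCBI Gene 16009), the main carrier of IGFs in serum, had 0.70, 0.91 and 0.77 FPKM across *Smyd2* fl/fl replicates 1, 2 and 3, against 1.24, 79.5 and 96.9 FPKM across *Smyd2* SMC-/- replicates 1, 2 and 3. *Smyd2* SMC-/- replicates 2 and 3 were far above all other libraries, while *Smyd2* SMC-/- replicate 1 was only slightly above the *Smyd2* fl/fl libraries. At approximate depth the *Smyd2* fl/fl values of *Igfbp3* stand for about 30, 42 and 35 fragments, and those of *Smyd2* SMC-/- for about 49, 3573 and 4269. Its log2 fold change over the 6 libraries was 3.86 (SE 1.39, limma adjusted p = 0.193), 0.0921 was the adjusted p with the replicate block, and in replicates 2 and 3 alone the log2 fold change was 5.59 (SE 0.128, limma adjusted p = 8.67e-07). The last fit has 2 libraries per group and leaves out the replicate 1 pair, in which *Igfbp3* differed little.

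The promoters of *Igfbp3*, *Igfbp4* and *Igfbp5* are shown because these genes had the largest log2 differences between the groups, in either direction, of the 9. The 150 bases before each start site in the RefSeq promoter table (GRCm38.p6) lie at chr11:7213924-7214073 on the minus strand for *Igfbp3*, chr11:99041094-99041243 on the plus strand for *Igfbp4* and chr1:72874866-72875015 on the minus strand for *Igfbp5*. Capitals mark an A- and T-rich motif, TATATA in *Igfbp3*, TATAAA in *Igfbp4* and TATTTAA in *Igfbp5*, whose first base lies 30, 28 and 51 bases before the start. The RefSeq gene ranges of *Igfbp3* and *Igfbp4* also reach upstream of these start sites.
Igfbp3: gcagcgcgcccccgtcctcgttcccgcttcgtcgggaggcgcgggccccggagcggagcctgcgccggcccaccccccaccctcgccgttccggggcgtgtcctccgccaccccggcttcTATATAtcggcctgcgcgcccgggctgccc
Igfbp4: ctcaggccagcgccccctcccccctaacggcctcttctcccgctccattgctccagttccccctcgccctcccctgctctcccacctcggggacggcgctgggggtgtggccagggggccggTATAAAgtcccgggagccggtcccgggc
Igfbp5: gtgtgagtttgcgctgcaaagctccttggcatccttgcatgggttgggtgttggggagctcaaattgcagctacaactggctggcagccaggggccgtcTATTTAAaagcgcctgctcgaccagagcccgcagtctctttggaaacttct
All 9 genes matched the RefSeq promoter table, with 10 start sites between them, and the 250 bases before each start were searched on both strands. TATAAA was in the windows of *Igfbp4* and, on the other strand, *Igfbp6*, and in 12.4% of 32851 windows of all genes. TATATA was in that of *Igfbp3* (5.25% of all windows) and TATTTAA in that of *Igfbp5* (4.18% of all windows). GGGCGG was found for *Igf1r*, *Igf2r*, *Igfbp2* and *Igfbp7* (32.7% of all windows), and CACGTG for *Igf2r* and *Igfbp2* (6.02% of all windows). The CArG box, the motif of smooth muscle promoters that serum response factor binds, was in none of the 10 windows and in 1.47% of all windows, which says only that it is not in these bases.

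*Igfbp2* (NCBI Gene 16008), whose product binds IGFs and integrins, had 4.24, 9.16 and 8.03 FPKM across *Smyd2* fl/fl replicates 1, 2 and 3, against 5.44, 94.7 and 65.9 FPKM across *Smyd2* SMC-/- replicates 1, 2 and 3. *Igfbp6* (NCBI Gene 16012), whose product prefers IGF2, had 6.9, 23.9 and 20.8 FPKM across *Smyd2* fl/fl replicates 1, 2 and 3, against 8.88, 97.8 and 72.6 FPKM across *Smyd2* SMC-/- replicates 1, 2 and 3. For both genes *Smyd2* SMC-/- replicates 2 and 3 were above all other libraries and *Smyd2* SMC-/- replicate 1 lay within the range of the *Smyd2* fl/fl libraries, so that the groups overlapped. The log2 fold change was 2.14 (SE 0.985, limma adjusted p = 0.289) for *Igfbp2* and 1.36 (SE 0.916, limma adjusted p = 0.475) for *Igfbp6*, and with the replicate block the adjusted p was 0.0866 and 0.0718. Leaving out 1 library at a time, the log2 fold change was 1.41 to 3.35 for *Igfbp2* and 0.73 to 2.39 for *Igfbp6*. In replicates 2 and 3 alone, with 2 libraries per group, the log2 fold change of *Igfbp2* was 3.06 (SE 0.172, limma adjusted p = 6.59e-05), and that of *Igfbp6* was 1.87 (SE 0.153, limma adjusted p = 0.000222). *Igfbp7* (NCBI Gene 29817), the low-affinity relative, had 749.7, 492 and 445 FPKM across *Smyd2* fl/fl replicates 1, 2 and 3, against 694, 445 and 359 FPKM across *Smyd2* SMC-/- replicates 1, 2 and 3. Replicate 1 was highest in both groups, the groups overlapped, and the level was above that of the other 8 genes in each of the 6 libraries. The log2 fold change of *Igfbp7* was -0.19 (SE 0.301, limma adjusted p = 0.788), 0.269 was the adjusted p with the replicate block, and the sign turned with quantile normalization, without *Smyd2* fl/fl replicate 1 and without *Smyd2* SMC-/- replicate 3. *Igfbp1*, *Igfbpl1* and *Igfals* had means under 0.5 FPKM over the 6 libraries. The product of *Igfals* is the acid-labile subunit that holds IGFs and IGFBP3 in serum.

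Taken as a pool of RNA per length, *Igfbp2* to *Igfbp7* summed to 772 ± 133 FPKM for *Smyd2* fl/fl against 786 ± 100.4 FPKM for *Smyd2* SMC-/-, as mean ± SD with n = 3 (exact two-sided permutation p = 0.90). Without *Igfbp7* the sum was 209.7 ± 41.4 FPKM for *Smyd2* fl/fl against 287 ± 125 FPKM for *Smyd2* SMC-/-, as mean ± SD with n = 3 (exact two-sided permutation p = 0.40). The make-up of that smaller pool differed by group, since *Igfbp4* made up 90.9, 85.3 and 84.7% of it for *Smyd2* fl/fl replicates 1, 2 and 3, against 6.19, 19.1 and 11.4% for *Smyd2* SMC-/- replicates 1, 2 and 3. The mean share of *Igfbp4* was 87 ± 3.45% for *Smyd2* fl/fl against 12.2 ± 6.5% for *Smyd2* SMC-/-, as mean ± SD with n = 3 (exact two-sided permutation p = 0.1). *Igfbp5* made up 2.01, 1.18 and 1.3% for *Smyd2* fl/fl against 83.5, 12.5 and 12.9% for *Smyd2* SMC-/-, with means of 1.49 ± 0.447% and 36.3 ± 40.9% (SD, n = 3 each). *Igfbp4* led this pool in 3 of 3 *Smyd2* fl/fl libraries, and in *Smyd2* SMC-/- the leading gene was *Igfbp5* in replicate 1, *Igfbp6* in replicate 2 and *Igfbp3* in replicate 3.

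**Figure D2:**
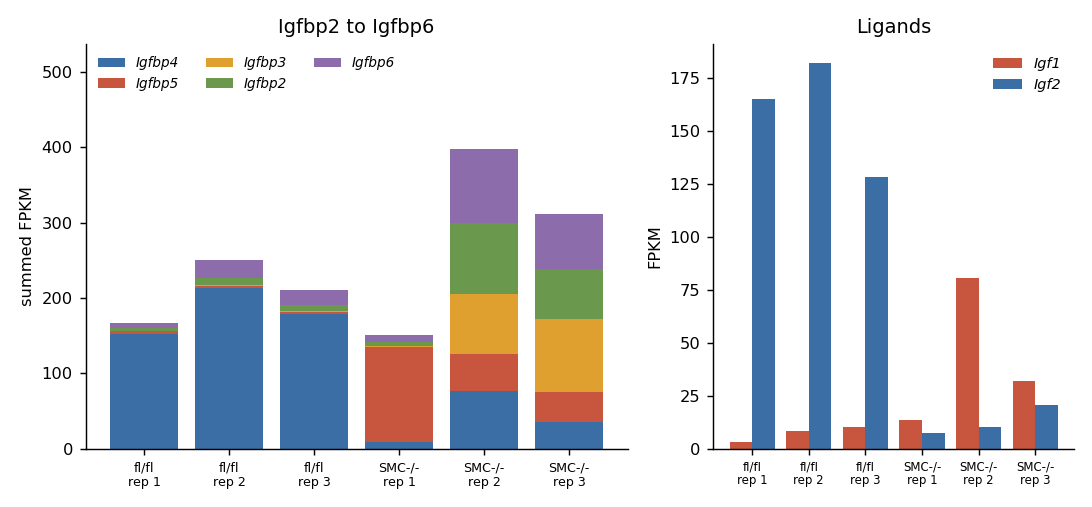
Left, summed FPKM of *Igfbp2* to *Igfbp6* in each library (bars from 0, 1 colour per gene). Right, FPKM of *Igf1* (red) and *Igf2* (blue) in each library. *Igfbp4* filled 84.7% to 90.9% of the *Smyd2* fl/fl bars and 6.19% to 19.1% of the *Smyd2* SMC-/- bars, and *Igf2* stood above *Igf1* in *Smyd2* fl/fl and below it in *Smyd2* SMC-/-.

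By mean FPKM, the order in *Smyd2* fl/fl was *Igfbp7*, *Igfbp4*, *Igf2r*, *Igf1r*, *Igfbp6*, *Igf1*, *Igfbp2*, *Igfbp5* and *Igfbp3*, from 562 ± 164 to 0.793 ± 0.107 FPKM (SD, n = 3). The ranges of neighbours in that order overlapped from *Igf1r* down to *Igfbp2* and were apart elsewhere. In *Smyd2* SMC-/- the order was *Igfbp7*, *Igfbp5*, *Igfbp6*, *Igfbp3*, *Igfbp2*, *Igf1*, *Igfbp4*, *Igf2r* and *Igf1r*, from 499 ± 174 to 17.6 ± 2.68 FPKM (SD, n = 3). Here only *Igfbp7* above *Igfbp5* and *Igf2r* above *Igf1r* were apart from the next gene, and neighbours in between did not differ beyond their spread.

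For some of the genes the genotype difference was not of the same size in each same-numbered pair. An interaction term in limma, chosen after the values were seen, set the difference in the replicate 1 pair against that in replicates 2 and 3, and 4 of the 9 genes passed an adjusted p of 0.05, where 8.62% of all tested genes did. In this fit the spread comes from replicates 2 and 3, and the lone replicate 1 libraries, 1 per group, are assumed to vary like them, so the term describes these libraries and is no independent test. The term was -5.2 (SE 0.242, limma adjusted p = 0.000444) for *Igfbp3* and -2.76 (SE 0.30, limma adjusted p = 0.00298) for *Igfbp2*, so that both differed less between the groups in replicate 1. It was -1.55 (SE 0.264, limma adjusted p = 0.014) for *Igfbp6* and, with the opposite sign, 1.3 (SE 0.22, limma adjusted p = 0.0135) for *Igfbp5*, which differed more in replicate 1. For *Igf1*, *Igf1r*, *Igf2r*, *Igfbp4* and *Igfbp7* limma's adjusted p of the term was 0.764, 0.294, 0.261, 0.198 and 0.807.

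**Figure D3:**
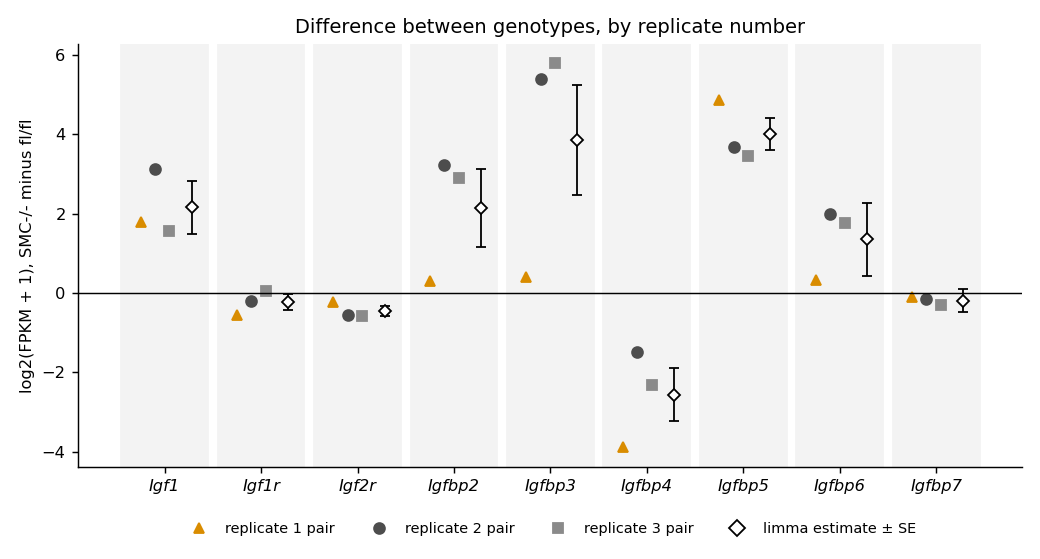
Difference of log2(FPKM + 1) between *Smyd2* SMC-/- and *Smyd2* fl/fl (vertical axis) for each of the 9 genes, in the replicate 1 pair (orange triangles) and the replicate 2 and 3 pairs (grey circles and squares). Open diamonds with bars are limma's estimate over the 6 libraries with its standard error. For *Igfbp3* the replicate 1 pair differed by 0.40 and the other pairs by 5.4 and 5.79.

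Markers of other cells also differed between replicate 1 and the rest. The 11 fibroblast and adventitial markers summed to 308, 944 and 812 FPKM across *Smyd2* fl/fl and 146, 733 and 715 FPKM across *Smyd2* SMC-/- replicates 1, 2 and 3, lowest in replicate 1 of each group, as *Igf1*, *Igfbp2*, *Igfbp3*, *Igfbp4* and *Igfbp6* were. By the mean over the 6 libraries *Dcn* was the most abundant of them, while *Ly6a* was above it in each *Smyd2* fl/fl library and in *Smyd2* SMC-/- replicate 1. *Dcn* had 13.9, 311 and 257 FPKM across the *Smyd2* fl/fl libraries against 25.6, 383 and 350.4 FPKM across the *Smyd2* SMC-/- libraries. *Lum* had 0, 1.31 and 1.17 FPKM across the *Smyd2* fl/fl libraries against 0.26, 14.5 and 10.4 FPKM across the *Smyd2* SMC-/- libraries, listed at 0 in *Smyd2* fl/fl replicate 1. Of these 11 markers 9 were tested, with 0 higher and 1 lower in limma, or 1 higher and 3 lower with the replicate block, where 2.44% and 10.4% of all tested genes passed in either direction. Their median log2 fold change was -1.09. The gene called in both fits was *Dpt*, with 144, 90.3 and 65.5 FPKM across the *Smyd2* fl/fl libraries against 3.31, 1.15 and 0.63 FPKM across the *Smyd2* SMC-/- libraries and a log2 fold change of -5.28 (SE 0.427, limma adjusted p = 0.00417). Unlike the sum of the 11 markers, *Dpt* was highest in replicate 1 of each group. *Cd34* had 71.1, 98.2 and 95 FPKM across the *Smyd2* fl/fl libraries against 3.39, 23.6 and 15.9 FPKM across the *Smyd2* SMC-/- libraries, *Ly6a* 52.6, 378 and 327 FPKM across the *Smyd2* fl/fl libraries against 36.4, 141 and 130.1 FPKM across the *Smyd2* SMC-/- libraries and *Col14a1* 6.49, 24.7 and 26.8 FPKM across the *Smyd2* fl/fl libraries against 64.8, 160.1 and 197 FPKM across the *Smyd2* SMC-/- libraries. These 3 passed with the block alone, with log2 fold changes of -2.85, -1.09 and 2.87 and a limma adjusted p of 0.0269, 0.0404 and 0.0032 (0.0669, 0.552 and 0.0683 without it). With 1 library left out *Ly6a* ranged from -1.99 to -0.46. The 12 smooth muscle markers summed to 1422, 1231 and 1248 FPKM for *Smyd2* fl/fl against 544, 727 and 702 FPKM for *Smyd2* SMC-/-, with 0 higher and 1 lower, or 2 lower with the block. *Acta2* had a log2 fold change of -1.55, or -1.62 to -1.41 with 1 library left out. The median of the 8 smooth muscle markers tested was -0.74. *Fabp4*, an adipocyte marker, had 6.19, 5.01 and 3.12 FPKM across the *Smyd2* fl/fl libraries against 119, 5.3 and 6.03 FPKM across the *Smyd2* SMC-/- libraries, with *Smyd2* SMC-/- replicate 1, the library with the most *Igfbp5*, far above the others. *Pparg*, the other adipocyte marker tested, was lower in each *Smyd2* SMC-/- library than in each *Smyd2* fl/fl library, with 4.5, 8.0 and 6.87 FPKM across the *Smyd2* fl/fl libraries against 3.84, 2.11 and 1.88 FPKM across the *Smyd2* SMC-/- libraries and a log2 fold change of -1.06 (SE 0.279, limma adjusted p = 0.107). *Adipoq*, *Plin1* and *Cidec*, which define adipocytes, were listed at 0 in *Smyd2* SMC-/- replicate 1. The 8 endothelial markers in the table, with *Kdr* the most abundant, summed to 1.53, 1.83 and 2.05 FPKM for *Smyd2* fl/fl against 1.9, 5.41 and 3.04 FPKM for *Smyd2* SMC-/-. Only *Kdr* of them was tested. It was higher in each *Smyd2* SMC-/- library than in each *Smyd2* fl/fl library, with a log2 fold change of 1.16, or 0.78 to 1.6 with 1 library left out. The 8 macrophage markers, led by *Cd14*, of which 4 were tested, summed to 42.6, 30 and 26.8 FPKM for *Smyd2* fl/fl against 40.9, 18.4 and 23.3 FPKM for *Smyd2* SMC-/-. Of the tested markers of these 2 lists 0 were called in limma, where 2.44% of all tested genes passed (1 and 1 at an unadjusted p under 0.05). Their part in the levels of the IGF genes was not tested.

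Beside the 9 genes, 90 other genes of the pathway were in the table and 76 were tested. In limma 1 was higher (*Stc2*) and 1 lower (*Igf2*), and with the replicate block 8 were higher and 6 lower. That is 2.63% of the 76 without the block and 18.4% with it, where 2.44% and 10.4% of all tested genes passed. Their median log2 fold change was 0.069. *Stc2*, whose product inhibits PAPP-A, had 3.97, 6.05 and 6.28 FPKM across the *Smyd2* fl/fl libraries against 17.7, 31.8 and 28.3 FPKM across the *Smyd2* SMC-/- libraries. All *Smyd2* SMC-/- libraries were above all *Smyd2* fl/fl libraries, with a fold change on the log2 scale of 2.05 (SE 0.263, limma adjusted p = 0.0177) and an adjusted p of 0.00427 with the block. The other stanniocalcin gene, *Stc1*, lay the other way, with 15.8, 1.85 and 1.64 FPKM across the *Smyd2* fl/fl libraries against 0.79, 0.08 and 0.33 FPKM across the *Smyd2* SMC-/- libraries and no overlap, and its log2 fold change was -1.87 (SE 0.716, limma adjusted p = 0.214), with an adjusted p of 0.0674 with the block and a range of -2.34 to -1.0 with 1 library left out. Without *Smyd2* fl/fl replicate 2 or 3 or *Smyd2* SMC-/- replicate 2 or 3, the adjusted p of *Stc2* in limma was 0.0837, 0.0862, 0.0843 and 0.106. *Pappa*, the gene of PAPP-A, and its relative *Pappa2* had means under 0.5 FPKM, so RNA of PAPP-A was near or at 0 in these libraries. Other listed proteases were present and not called in limma with or without the block. For *Smyd2* fl/fl against *Smyd2* SMC-/-, *Htra1* had 52.4, 50.2 and 36.3 against 41.4, 74.9 and 50 FPKM. *Adam9* had 133.6, 138.4 and 149.2 against 149.5, 198.3 and 168 FPKM, and *Adam12* 0.38, 5.71 and 6.48 against 14.8, 12.6 and 7.67 FPKM.

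Of the 10 tested receptor adaptors, 0 were called in limma without the block (5 at an unadjusted p under 0.05) and 4 were higher with it, where 2.44% and 10.4% of all tested genes passed. *Irs1* and *Irs2*, the docking proteins of IGF1R, had 6.95, 7.47 and 7.83 FPKM across the *Smyd2* fl/fl libraries against 11.2, 11.9 and 11 FPKM across the *Smyd2* SMC-/- libraries and, for *Irs2*, 2.34, 2.95 and 3.34 FPKM across the *Smyd2* fl/fl libraries against 5.69, 5.87 and 7.1 FPKM across the *Smyd2* SMC-/- libraries. With the block their log2 fold changes were 0.56 (SE 0.109, limma adjusted p = 0.0433) and 0.90 (SE 0.13, limma adjusted p = 0.0261). *Grb10*, an adaptor that restrains the receptor, and *Shc1*, which links it to RAS, passed too (limma adjusted p = 0.0258 and 0.0416 with the block) with log2 fold changes of 0.97 and 0.58. All 4 were higher in each same-numbered pair, and without the block limma's adjusted p of *Irs1*, *Irs2*, *Grb10* and *Shc1* was 0.0727, 0.0542, 0.0802 and 0.0683. Of 8 genes of the growth hormone axis, which drives *Igf1* in liver, *Socs2*, a feedback inhibitor, had 6.46, 7.09 and 6.41 FPKM across the *Smyd2* fl/fl libraries against 12.9, 42.8 and 31.4 FPKM across the *Smyd2* SMC-/- libraries. Its log2 fold change was 1.82, with a limma adjusted p of 0.0376 with the block and 0.0704 without it, and like *Igfbp2* it was higher in *Smyd2* SMC-/- replicates 2 and 3 than in *Smyd2* SMC-/- replicate 1.

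The 3 genes of the IGF2 mRNA-binding proteins held 2 that were lower with the block, *Igf2bp1* (1.92, 1.03 and 1.14 FPKM across the *Smyd2* fl/fl libraries against 0.79, 0.23 and 0.17 FPKM across the *Smyd2* SMC-/- libraries) and *Igf2bp3* (4.18, 3.41 and 4.05 FPKM across the *Smyd2* fl/fl libraries against 2.03, 1.38 and 1.74 FPKM across the *Smyd2* SMC-/- libraries). Limma's adjusted p with the block was 0.0416 and 0.0314, where 10.4% of all tested genes passed, and without it 0.16 and 0.0598. *Itgb3*, of the integrin that IGF1 signalling in VSMCs involves, had a log2 fold change of -0.70 (limma adjusted p = 0.0456 with the block, 0.0793 without). Of 12 tested FOXO factors and targets, *Klf15* and *Sesn3* were higher with the block (1.6 and 0.91, limma adjusted p = 0.0295 and 0.0239) and *Sesn1* was lower (-0.77, limma adjusted p = 0.0273), against 10.4% of all tested genes passing. Without the block limma's adjusted p of *Klf15*, *Sesn3* and *Sesn1* was 0.0592, 0.413 and 0.365, the groups overlapped for *Sesn3* and *Sesn1*, and with 1 library left out their log2 fold changes were 0.46 to 1.42 and -1.18 to -0.45. Among relatives with an IGFBP domain 0 of 9 passed in limma, with or without the block, against 10.4% and 2.44% of all tested genes. Of these relatives 3 without the block and 3 with it had an unadjusted p under 0.05. *Ctgf*, 1 of these relatives, had 138, 162 and 147 FPKM across the *Smyd2* fl/fl libraries against 19.8, 388 and 327 FPKM across the *Smyd2* SMC-/- libraries, and *Cyr61* had 286, 220.1 and 204 FPKM across the *Smyd2* fl/fl libraries against 313, 368 and 387 FPKM across the *Smyd2* SMC-/- libraries.

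**Figure D4:**
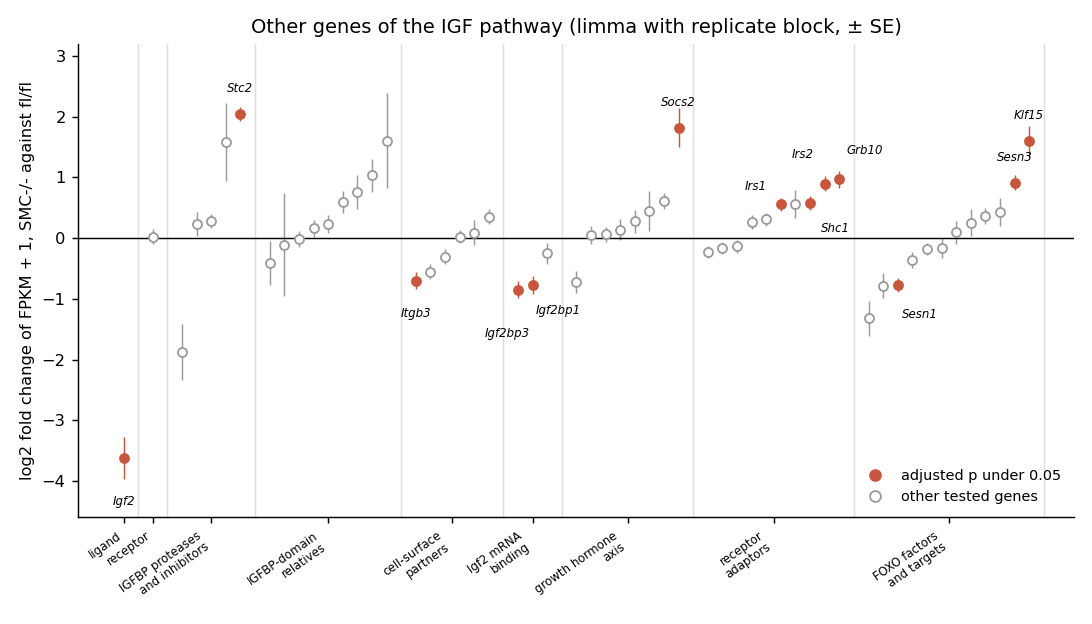
Log2 fold change of FPKM plus 1 (*Smyd2* SMC-/- against *Smyd2* fl/fl) of tested pathway genes other than the 9, grouped by role (not all 76 are drawn), from limma with the replicate block, with standard errors. Filled red points passed an adjusted p of 0.05 over all tested genes.

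Over the 6 libraries and 6617 genes at a mean of 10 FPKM or more, the genes most like *Igfbp7* in log2(FPKM + 1) were *Selenow*, *Tars* and *Heatr3* (Pearson r = 0.997, 0.997 and 0.994), and those most like *Igfbp5* were *Armcx2*, *Cnpy4* and *Tmem30a* (Pearson r = 0.999, 0.998 and 0.996). These are descriptions of 6 libraries that share genotype and replicate structure. In the RefSeq annotation *Igfbp2* and *Igfbp5* are neighbours on chromosome 1, transcribed toward each other, with 0 genes between them. The *Igfbp2* level was high in *Smyd2* SMC-/- replicates 2 and 3 and that of *Igfbp5* was high in all *Smyd2* SMC-/- libraries and highest in replicate 1. *Igfbp3* has *Igfbp1* as its neighbour on chromosome 11, and *Igfbp1* had 0, 0.03 and 0.07 FPKM across the *Smyd2* fl/fl libraries against 0, 0.11 and 0.39 FPKM across the *Smyd2* SMC-/- libraries.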

How the data were processed

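RNA of 6 libraries was measured, 3 per genotype, assigned from the labels. The authors used SOAPnuke to filter reads, HISAT and Bowtie2 to map them and RSEM to compute the deposited FPKM, given with 2 decimals for 18112 genes. Tool versions and the genome build are not given in the sources used here. FPKM are not counts, so log2(FPKM + 1) was compared, which understates changes of low genes, by limma 3.58.1 (lmFit, eBayes with trend and robust) in R 4.3.3 on 12565 genes whose mean was 0.5 FPKM or more, with Benjamini-Hochberg adjustment and calls at an adjusted p under 0.05. Other steps used Python 3.11.15, numpy 2.4.6, pandas 2.3.3, scipy 1.17.1 and matplotlib 3.10.9. Fragments per library were estimated from FPKM steps of 2304 genes, where 63.8% to 69.6% of low values lay within 0.15 of a whole fragment. Chance gives 30% at a fixed depth, but the depth with the highest share was taken, so chance would give more here. These estimates are approximate.

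The replicate numbers come from the labels, and libraries of the same number moved together around the group means (correlations of 0.61, 0.46 and 0.53 for replicates 1, 2 and 3), so the numbers were taken as pairs and fitted as a block in limma. Replicates 2 and 3 of different groups were also correlated (0.46 and 0.44), so only replicate 1 stood apart, and the methods name no pairing. The fits were also run on simulated data with 200 changed genes, with or without a shift of replicate 1 that both groups shared. With the shift, limma recovered 167 of the 200 without the block and 197 with it, with 0 and 9 false calls. The genotype difference was simulated as equal in all pairs, so the run says nothing about genes whose difference varied between pairs. The 9 genes and the gene lists were chosen with earlier results of these data known. Genes named are the 9, *Smyd2*, up to 4 genes per pathway list that passed with or without the block (or else up to 2 by mean FPKM), the most abundant markers and those at 0, and the 3 genes most like *Igfbp7* and *Igfbp5*. 1 gene that this rule selects is not reported here. Other genes named for a role or a level were chosen after their values were seen.

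Alternatives were a pseudocount of 0.1, other filters, TPM, quantile normalization, a term for replicate 1, replicates 2 and 3 alone, leaving out each library, and 2 sets of cutoffs that the study gives (a fold change over 2 with an adjusted p under 0.01, as planned, and a stricter adjusted p of 0.001, added after the values were seen). The TPM fit and the fits on fewer libraries were revised after their values, and an earlier account of these data, had been seen. At first TPM was summed over tested genes only and the filter was taken over the libraries kept. The revision sums all listed genes and keeps the filter over all 6 libraries, as the plan was worded. Calls were 254 higher and 102 lower with TPM before it (247 and 99 after), and 1507 higher and 2160 lower in replicates 2 and 3 alone (1494 and 2156 after). The same IGF genes were called before and after in each of the 8 fits revised.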

Additional observations from a re-analysis of the deposited data

Results flagged for a closer look

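For 4 of the 9 IGF genes the difference between the groups in the replicate 1 pair was unlike that in replicates 2 and 3. On the log2 scale the former minus the latter was -2.76 for *Igfbp2*, -5.2 for *Igfbp3*, -1.55 for *Igfbp6* and 1.3 for *Igfbp5*. These 4 passed an interaction term in limma, as 8.62% of all tested genes did, that was chosen because the values had been seen and that rests on 1 replicate 1 library per group, so it restates what was seen and is no independent test.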

How the results depend on the processing

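With the replicate block 1312 genes passed an adjusted p of 0.05 in place of 306, with a term for replicate 1 against replicates 2 and 3 2550, in replicates 2 and 3 alone 3650 (3667 before the revision of that fit), with a mean of at least 5 FPKM 159, and at a fold change over 2 and an adjusted p under 0.01 53 (6 at an adjusted p of 0.001 or less, with 0 of the 9 IGF genes). Leaving out 1 library at a time gave 34 to 686. Of the 9 IGF genes, 3 were called with the replicate block, 5 with the replicate 1 term and 6 in replicates 2 and 3 alone, and 0 to 4 with 1 library left out. The 0 arose in limma without *Smyd2* fl/fl replicate 2 and without *Smyd2* fl/fl replicate 3, where 4 and 3 of the genes had an unadjusted p under 0.05. Beside the calls named with the results, the block changed no call of the 9 genes. The direction of *Igfbp7* turned with quantile normalization (log2 fold change 0.0087) and with 1 library left out it ranged from -0.45 to 0.038. That of *Insr* turned in replicates 2 and 3 alone (-0.072) and ranged from -0.058 to 0.13 with 1 library left out. That of *Ctgf* was 1.20 in replicates 2 and 3 alone, 0.0035 with TPM and -0.86 to 1.26 with 1 library left out. Causes were not tested. Of the other fits of the 9 genes, 107 kept direction and side of the threshold, 14 passed it newly and 2 lost it. Depth limits genes such as *Smyd2* in *Smyd2* SMC-/-, at about 46, 12 and 24 fragments.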
